A study of Mus musculus with 6 samples.

Results

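Hedgehog pathway genes were followed in the ribosome-associated RNA of lung pericytes from mice with a pericyte-directed deletion of Yap1 and Wwtr1, the genes of YAP1 and TAZ. The set holds 9 genes, chosen by name: the ligand Shh, the receptors and ligand-binding proteins Ptch1, Hhip, Boc and Gas1, the transducer Smo and the transcription factors Gli1, Gli2 and Gli3. All 9 were found among the 21603 genes of each sample. RNA was precipitated through the HA-tagged ribosomal protein RPL22 from whole lungs of C57BL/6 mice at postnatal day 8, and 3 control lungs were compared with 3 Yap1,Wwtr1 iPCKO lungs. The controls were labelled Yap1+/-;Wwtr1+/- and the mutants Yap1-/-;Wwtr1-/-. Per the methods, both groups carried the Pdgfrb(BAC)-CreERT2 transgene and a single Rpl22 lox allele, and both received tamoxifen from P0 to P2. Control mice carried lox and wild-type copies of both genes, so that their recombined cells were heterozygous and not wild type. The Pdgfrb promoter sets which cells are tagged, and any other cell that recombined is in the same RNA. RNA of untagged cells may also have been carried through the precipitation. The samples include no input RNA, so its share could not be measured.

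In the Hedgehog pathway a secreted ligand binds PTCH1, which otherwise holds the membrane protein SMO inactive. Active SMO at the primary cilium lets GLI2 act as an activator and limits the repressor form of GLI3, and the cell then transcribes Gli1, Ptch1 and Hhip, so that these transcripts are widely read as signs of a response. In the developing lung, epithelial cells are the main source of SHH and the mesenchyme is the responding tissue.

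Levels are given as RPKM, the read number of a gene scaled to its exon length in kilobases and to the depth of the library. None of the 9 genes passed the test, which was limma on log2(RPKM + 0.1) and called a gene when its adjusted p-value was under 0.01 and its log2 fold change beyond 0.5 in either direction. Over all 12034 genes tested, 6.79% passed, 4.11% higher and 2.68% lower in iPCKO samples. The largest differences were those of the co-receptor gene Gas1, whose mean level was 1.8 times that of controls, and of Gli1, at 1.41 times. Ptch1 stood at 83.1% of the control mean. At an unadjusted p-value below 0.05 the limma count was 3 of 9 genes (Gas1, Gli1 and Ptch1), compared with 29.7% of all tested genes. For the same 3 genes the RPKM ranges of the groups did not overlap, which was the case for 35.5% of all tested genes. The median log2 fold change of the 9 genes was 0.09, against -9.7e-05 over all genes tested.

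Some facts of the libraries bear on these values. Yap1 was at 13.2, 11.5 and 12.4 RPKM in controls 1, 2 and 3 and at 5.76, 5.83 and 5.25 RPKM in iPCKO 1, 2 and 3, and it passed the test as lower. Wwtr1, which encodes TAZ, ranged from 53.8 to 71.3 RPKM in controls and from 60.3 to 63.5 RPKM in mutants (log2 fold change 0.05). The files give a single value for a whole gene, so the removed exons could not be read apart from the rest and the Wwtr1 value does not check its deletion. The steps between low RPKM values, of which 75.3% to 77.0% lay within 0.02 of a whole read, gave relative depths per library from 14.2 M reads (iPCKO 3) to 39.6 M reads (iPCKO 2). Pericyte markers were abundant, with Pdgfrb at a mean of 1435 RPKM over all samples. The 10 markers summed to 3646 to 4514 RPKM in controls and 3072 to 3708 RPKM in mutants, and of these genes 3 rose, 3 fell and 4 did not pass. Transcripts of other cell types were also present. The 13 epithelial markers, led by Sftpc, summed to 609.9 to 694.0 RPKM in controls and 878.5 to 932.5 RPKM in mutants, where 2 of them (Sftpb and Hopx) rose. The 8 smooth muscle markers, led by Acta2, summed to 1313 to 1492 and 1436 to 1576 RPKM, the 11 fibroblast markers, led by Aspn, to 373.5 to 452.2 and 486.6 to 628.5 RPKM, and the 8 endothelial markers, led by Egfl7, to 197.1 to 209.4 and 192.5 to 206.7 RPKM. All 5 neutrophil markers, led by S100a9, rose, with sums of 71.4 to 99.0 RPKM in controls and 402.5 to 4313 RPKM in mutants. Of the 5 general leukocyte markers, led by Coro1a, 3 rose, with sums of 35.8 to 48.7 and 68.0 to 117.1 RPKM. Mesothelial (Msln), Schwann cell (S100b) and cartilage (Col2a1) markers summed to less than any of these, with highest sums of 9.76, 4.46 and 2.31 RPKM. No marker was at 0 in any library other than the cartilage genes Col9a1 and Matn1.

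Promoter windows were taken from RefSeq on GRCm38.p6, where 6 of the 9 genes had an entry (not Shh, Gli1 and Boc). The letters GACCACCCA, the core bound by GLI factors, with up to 1 mismatch, and GGAATG, the core bound by the TEAD partners of YAP1 and TAZ, were searched on both strands from 250 bases before to 50 bases after the start. The GLI letters were in none of the 6 windows, compared with 6.74% of 32851 windows over all genes, and the TEAD letters were in 1, that of Smo, compared with 14.7%. A match describes letters in a short window, and its absence says nothing of sites elsewhere. The 250 bases before the start are shown for Gas1 and Ptch1, which had the largest difference in each direction among the genes with a window, and for Smo, which held the single match (in capitals, 17 bases before the start, on the reverse strand). The windows are chr13:60177536-60177785 on the minus strand for Gas1, chr13:63565736-63565985 on the minus strand for Ptch1 and chr6:29735247-29735496 on the plus strand for Smo. The Ptch1 window lies inside the annotated gene, which begins at 63573598 on the minus strand. The Gli3 window (15463473 to 15463722) also lies inside its gene, which begins at 15463235 on the plus strand. The bases before these annotated starts were not searched. For Gas1 the RefSeq start, 60177535, lies upstream of the annotated start, 60177365, and the bases next to the latter were not searched.
Gas1: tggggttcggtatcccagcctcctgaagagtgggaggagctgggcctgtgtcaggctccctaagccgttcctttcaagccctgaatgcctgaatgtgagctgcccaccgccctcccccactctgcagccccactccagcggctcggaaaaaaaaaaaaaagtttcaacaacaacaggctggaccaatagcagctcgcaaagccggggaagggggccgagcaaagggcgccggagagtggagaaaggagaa
Ptch1: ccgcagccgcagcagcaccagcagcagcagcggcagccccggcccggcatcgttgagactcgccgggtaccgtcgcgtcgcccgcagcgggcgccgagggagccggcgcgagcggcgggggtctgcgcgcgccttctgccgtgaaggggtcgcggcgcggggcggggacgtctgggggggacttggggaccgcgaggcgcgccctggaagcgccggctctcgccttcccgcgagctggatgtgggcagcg
Smo: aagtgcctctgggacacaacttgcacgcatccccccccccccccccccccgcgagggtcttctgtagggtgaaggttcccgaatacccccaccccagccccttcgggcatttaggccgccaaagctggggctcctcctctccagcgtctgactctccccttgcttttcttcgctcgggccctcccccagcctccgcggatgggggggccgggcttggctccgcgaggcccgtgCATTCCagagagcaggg
These windows held 10, 41 and 15 CpG dinucleotides, respectively, and had a GC content of 58.8%, 78.4% and 68.4%.

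Shh (ENSMUSG00000002633, chromosome 5 of GRCm38, 28456815 to 28467256, 3 exons) encodes the ligand sonic hedgehog. Its level was the lowest of the 9 genes, at 0.735, 1.09 and 0.910 RPKM in controls 1, 2 and 3, and at 1.23, 0.984 and 1.04 RPKM in iPCKO 1, 2 and 3. The groups overlapped, and the log2 fold change was 0.24 (95% interval -0.22 to 0.70, adjusted p = 0.48, limma). It was 0.11 without control 1, 0.15 without iPCKO 1 and 0.36 without control 2, and 0.07 under quantile normalization. From the depths above, an estimated 41.2 to 110.9 reads lay behind each value, so counting alone gives an error of up to 15.6%, compared with up to 5.24% for Gli1 and 4.13% for Gas1. These reads are approximate, since they lay up to 0.25 (Shh), 0.37 (Gli1) and 0.32 (Gas1) from a whole number. Shh passed the filter on low values (at least 1 RPKM in at least 3 samples) with exactly 3 samples. Transcripts of the other ligands were lower still. Dhh (desert hedgehog) ranged from 0.24 to 0.43 RPKM, and Ihh (Indian hedgehog) from 0 to 0.06 RPKM. Neither was tested. The epithelial markers whose sums are given above were present in the same libraries, and their part in the Shh level was not tested. In RNA precipitated from whole lungs, a change in the number of cells of a type and in RNA per cell cannot be told apart.

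Ptch1 (ENSMUSG00000021466, chromosome 13, 63508328 to 63573598) encodes the receptor that holds SMO inactive and is itself transcribed in responding cells. Its level was 33.8, 41.2 and 34.4 RPKM in controls and 31.6, 30.7 and 28.5 RPKM in iPCKO samples. Every mutant value was below every control value, with iPCKO 1 and control 1 the closest pair. The log2 fold change was -0.26 (standard error 0.10, 95% interval -0.49 to -0.03, adjusted p = 0.12, limma), and it was -0.17 without control 2, the highest control.

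Hhip (ENSMUSG00000064325, chromosome 8, 79965851 to 80058006) encodes a membrane-anchored protein that binds the ligand and dampens the pathway. It had 9.38, 12.6 and 10.7 RPKM in controls and 12.4, 11.1 and 11.2 RPKM in mutants. All mutant values lay within the range of the controls. The log2 fold change was 0.09 (95% interval -0.18 to 0.36, adjusted p = 0.65).

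**Figure D1:**
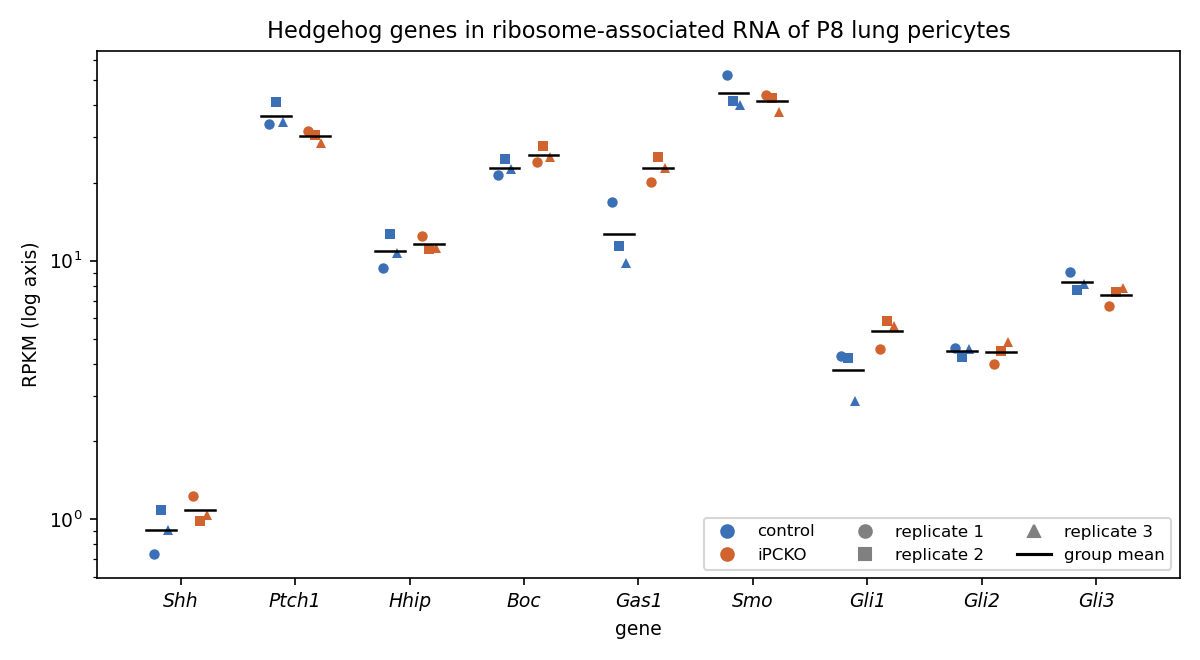
RPKM (log axis) of the 9 Hedgehog genes in each sample, controls in blue and iPCKO samples in orange, with a symbol for each replicate number and a black line at the group mean. Gas1 and Gli1 were higher in every mutant than in every control, Ptch1 was lower in every mutant, and the groups overlapped for the other genes.

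The co-receptors help the ligand to bind PTCH1, and none of their genes passed. Gas1 (ENSMUSG00000052957, chromosome 13, 60174405 to 60177365, a single exon) encodes a protein anchored to the membrane by a lipid. It was at 16.9, 11.4 and 9.81 RPKM in controls and 20.2, 25.3 and 22.9 RPKM in iPCKO samples. The lowest mutant was above the highest control, and control 1 lay well above the other 2 controls. The group means were 12.7 ± 3.71 RPKM (SD, n = 3) and 22.8 ± 2.53 RPKM. On the log2 scale the difference was 0.87 (standard error 0.19, 95% interval 0.45 to 1.30). The adjusted p-value of 0.015 (limma) missed the threshold of 0.01. Without control 1 it was 0.0026 with a log2 fold change of 1.10, which passed, and without each of the other 5 samples it did not pass. The size of this difference exceeded that of 94.3% of all tested genes.

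Boc (ENSMUSG00000022687, chromosome 16, 44485049 to 44558897), which encodes a co-receptor of the immunoglobulin superfamily, gave 21.5, 24.6 and 22.5 RPKM in the controls. The mutants were at 24.2, 27.8 and 25.2 RPKM. The lowest mutant was just below the highest control, and the log2 fold change was 0.17 (95% interval -0.04 to 0.38, adjusted p = 0.27), or 0.11 without iPCKO 2. Cdon, which encodes the relative of BOC, averaged 3.41 ± 0.249 (control) and 3.26 ± 0.256 RPKM (iPCKO; SD, n = 3; log2 fold change -0.06, adjusted p = 0.76). Gas1 is also expressed in fibroblasts, whose markers summed higher in mutants. Of these 11 markers, only Aspn passed the thresholds, the median of their log2 fold changes was -0.03, and 4 genes were higher and 1 was lower in all mutants than in all controls. Their part in the Gas1 difference was not tested.

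Smo (ENSMUSG00000001761, chromosome 6, 29735503 to 29761365) encodes the transducer and had the highest level of the 9 genes, at 52.4, 41.4 and 40.2 RPKM in controls and 43.9, 42.7 and 37.6 RPKM in mutants. Control 1 was the highest sample and the other values of both groups were interspersed. The log2 fold change was -0.10 (95% interval -0.38 to 0.17, adjusted p = 0.62).

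None of the 3 GLI factor genes passed. Gli1 (ENSMUSG00000025407, chromosome 10, 127329882 to 127341974) encodes an activator that is made in responding cells. It was at 4.29, 4.19 and 2.86 RPKM in controls and 4.58, 5.86 and 5.61 RPKM in mutants. The groups did not overlap, although iPCKO 1 was close to controls 1 and 2, and control 3, the deepest control, was the lowest. The log2 fold change was 0.50 (standard error 0.17, 95% interval 0.11 to 0.89, adjusted p = 0.086, limma), and it was 0.32 without control 3. Smooth muscle cells and fibroblasts of the lung also express Gli1. The summed smooth muscle markers, to which Acta2 contributed most, overlapped between the groups. Of these 8 genes, however, Cnn1 (2.15-fold) and Actg2 (3.01-fold) rose and Lmod1 (0.511-fold) fell, and 3 were higher in every mutant than in every control. The fibroblast sum was higher in mutants, and Aspn, its largest member, had means of 114.4 RPKM in controls and 217.0 RPKM in mutants. In the paper, a reporter driven by the same transgene was not seen in PDGFRα+ fibroblasts or in αSMA+ bronchial muscle cells and myofibroblasts. The reporter mice received tamoxifen on partly different days, and imaging of a reporter does not measure the precipitated RNA. The part of smooth muscle cells and fibroblasts in the Gli1 value was not tested.

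Gli2 (ENSMUSG00000048402, chromosome 1, 118834132 to 119053619), the main activator at the start of a response, gave 4.58, 4.25 and 4.55 RPKM in the controls, and the mutants had 3.98, 4.50 and 4.86 RPKM. The latter spread to both sides of the controls, and the log2 fold change was -0.0085 (95% interval -0.25 to 0.24, adjusted p = 0.97). Gli3 (ENSMUSG00000021318, chromosome 13, 15463235 to 15730026), which acts mainly as a repressor, was at 9.02, 7.69 and 8.14 RPKM in controls and 6.66, 7.58 and 7.84 RPKM in mutants. Its highest mutant was within the range of the controls, and the log2 fold change was -0.17 (95% interval -0.40 to 0.07, adjusted p = 0.32). Leaving out iPCKO 1 or control 1 gave -0.099 and -0.11.

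Per kilobase of exon, the order of the mean RPKM in controls was Smo, Ptch1, Boc, Gas1, Hhip, Gli3, Gli2, Gli1 and Shh. The ranges of Smo and Ptch1 overlapped, as did those of Gas1 and Hhip and those of Gli2 and Gli1, while all other neighbours in this order were apart. In mutants Gas1 was apart from Hhip (its lowest value was 20.2 RPKM against a highest of 12.4 RPKM) and overlapped with Boc. Gli1 and Gli2 exchanged places, and their ranges overlapped in both groups. Within samples, Gli2 was above Gli1 in all 3 controls (4.25 against 4.19 RPKM in control 2) and below it in all 3 mutants. Smo was above Ptch1 and Boc above Gas1 in each sample, although these ranges overlapped in controls and in mutants, respectively. By the mean of all 6 samples, Smo was higher than 93.8% and Gli2 higher than 51.0% of the 17678 genes with a value above 0, compared with 32.2% for Shh.

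Ratios between these genes within a sample do not depend on the scaling between libraries. A set of 6 pairs was chosen after their values had been seen. Gli1 relative to Ptch1 was 0.127, 0.102 and 0.0832 in controls and 0.145, 0.191 and 0.197 in mutants, a log2 difference of 0.78. All mutants were above all controls. Gli1 relative to the repressor gene Gli3 ranged from 0.352 to 0.545 in controls and from 0.687 to 0.772 in mutants. Gas1 relative to Boc ranged from 0.435 to 0.784 and from 0.836 to 0.909. Gli2 relative to Gli3 differed little, with 0.508 to 0.560 against 0.593 to 0.620, although the ranges were apart. For each of these 4 ratios the two-sided exact permutation test gave p = 0.1 (0.15 when adjusted over the 6 pairs by Benjamini-Hochberg). No smaller value than 0.1 is possible with 3 samples in each group, so these tests could not pass. Any ratio whose ranges are apart gives this value, so the test adds nothing to the ranges. How often ratios of other gene pairs are apart was not computed. The ratios of Gli1 to Hhip (0.267 to 0.458 against 0.368 to 0.529, exact p = 0.2) and of Ptch1 to Smo (0.644 to 0.996 against 0.720 to 0.760, exact p = 0.4) overlapped.

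**Figure D2:**
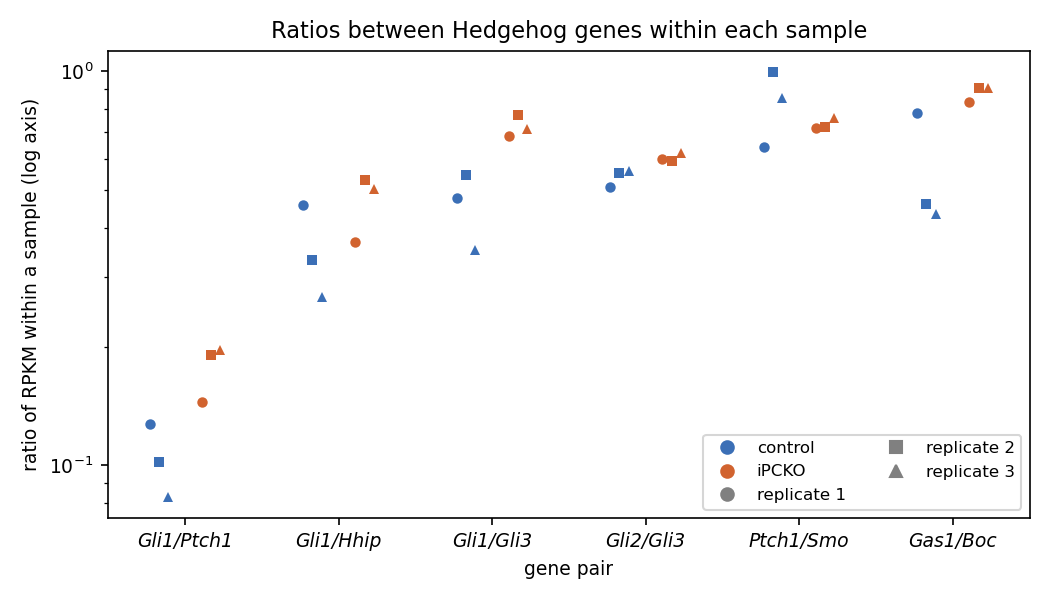
Ratio of RPKM between pairs of Hedgehog genes within each sample (log axis), controls in blue and iPCKO samples in orange, with a symbol for each replicate number. The pairs were chosen after their values had been seen. The ratios of Gli1 to Ptch1, Gli1 to Gli3, Gli2 to Gli3 and Gas1 to Boc were higher in every mutant than in every control.

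Of 59 other genes of the pathway, 56 were tested and 6 passed the thresholds, 5 higher and 1 lower in mutants. This is 10.7%, compared with 6.79% of all genes. The list was chosen with earlier results of these data known, and it holds Bmp4, which the paper names as reduced. The comparison of these shares is therefore not independent of the data, and it was not tested. The median log2 fold change of the 56 genes was -0.02. Among 13 tested genes that are reported as Hedgehog targets in other tissues, 4 rose and 1 fell, and the median was 0.18. Foxd1 was too low to be tested. Such targets are also controlled by other pathways.

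Ccnd1, which encodes cyclin D1, rose from 16.1 ± 1.17 RPKM (SD, n = 3) to 37.3 ± 1.05 RPKM, a log2 fold change of 1.205 (adjusted p = 8.1e-05, limma). Sfrp1, which encodes a secreted Wnt inhibitor, rose from 1.02 ± 0.0635 to 3.40 ± 0.840 RPKM (1.615, adjusted p = 0.00108). With controls at 1.09, 0.971 and 0.996 RPKM, Sfrp1 met the filter on low values only through the mutants. It was not tested where 1 RPKM was required in all samples, and it passed the thresholds without the filter. Bmp4, a ligand gene of the BMP pathway, fell from 36.3 ± 1.96 to 18.03 ± 1.97 RPKM (-1.01, adjusted p = 0.000411). These 3 genes passed the thresholds without each of the 6 samples in turn. Foxl1, a forkhead factor gene, rose from 2.63 ± 0.596 to 5.19 ± 0.560 RPKM (0.97, adjusted p = 0.00511), and Ccnd2, which encodes cyclin D2, from 65.6 ± 3.23 to 101.8 ± 15.6 RPKM (0.62, adjusted p = 0.00944). Foxl1 still passed when either control 1 or iPCKO 1 was left out but not without any of the other 4 samples, and Ccnd2 lost its call whichever sample was removed. Foxf1, a forkhead gene that responds to SHH in the lung mesenchyme, had 153.8 ± 20.7 and 173.8 ± 12.7 RPKM and a log2 fold change of 0.18 (95% interval -0.10 to 0.46, adjusted p = 0.37). Its paralogue Foxf2, named here after its values were seen, was at 171.0, 129.6 and 134.9 RPKM in controls and 106.6, 89.7 and 72.5 RPKM in mutants. Every mutant was below every control, but the log2 fold change of -0.70 (adjusted p = 0.021, limma) did not pass. Foxf2 passed with the replicate number as a block, with quantile normalization, with sample weights and without iPCKO 1.

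Among the 5 tested genes for ligand processing and release, Scube1 rose from 3.27 ± 0.603 RPKM (SD, n = 3) to 5.52 ± 0.445 RPKM, a log2 fold change of 0.75 (adjusted p = 0.00891). The SCUBE proteins are secreted factors that help release the lipid-modified ligand. The related Scube3 averaged 2.97 ± 0.215 RPKM (control) against 1.835 ± 0.179 RPKM (iPCKO). Its log2 fold change had the opposite sign, -0.67, and its adjusted p-value of 0.01003 lay just above the threshold. Scube1 kept its call without control 2 and lost it without any of the other 5 samples.

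No gene passed among the 4 for reception, the 21 for transduction and the 13 for the cilium. Lrp2, which encodes a large endocytic receptor, had a log2 fold change of 0.67 (adjusted p = 0.064), and Gpc3, which encodes a glypican that binds the ligand, one of 0.51 (adjusted p = 0.014). The transduction genes had log2 fold changes from -0.30 for Ulk3, a kinase gene (adjusted p = 0.33), to 0.54 for Arrb2, a beta-arrestin gene (adjusted p = 0.072), with a median of -0.02. Sufu, which encodes the GLI-binding inhibitor, was at 5.88 ± 0.0976 and 5.78 ± 0.427 RPKM, Kif7, a ciliary kinesin gene, at 7.36 ± 0.622 and 7.34 ± 1.03 RPKM, and Gpr161, which encodes an inhibitory receptor of the cilium, at 8.36 ± 0.944 and 8.58 ± 0.654 RPKM (control and iPCKO, SD, n = 3). Their log2 fold changes were -0.03 (95% interval -0.24 to 0.19), -0.0092 (-0.29 to 0.27) and 0.04 (-0.21 to 0.29). In the cilium list the median was -0.18. Its 2 largest values were those of Kif3a, a motor subunit gene, at -0.56 (adjusted p = 0.030), and Ift88, an intraflagellar transport gene, at -0.44 (adjusted p = 0.014).

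Exons annotated on the opposite strand overlap several of the 9 genes. Gm48488 covers 589 bases of Gas1, or 19.9% of its exons, and 9530036O11Rik and Gm26894 cover 446 and 361 bases of Shh. For Gli1 these are Arhgap9 (62 bases) and Gm47200 (265 bases). Gm6556 covers 188 bases of Gli3, and Gm27820 covers 175 bases of Hhip. Arhgap9 was at 12.4, 9.06 and 9.74 RPKM in controls and 11.7, 11.4 and 13.1 RPKM in mutants, and these groups overlapped. The libraries kept the strand, but the strand setting of the counting is not given in the sources used here. The values of the overlapped genes may therefore hold reads of these neighbours. Of the neighbours, only Arhgap9 was among the genes with a value, so an overlap with a counted gene is known only for Gli1. Gli1 may lack reads assigned to both.

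**Figure D3:**
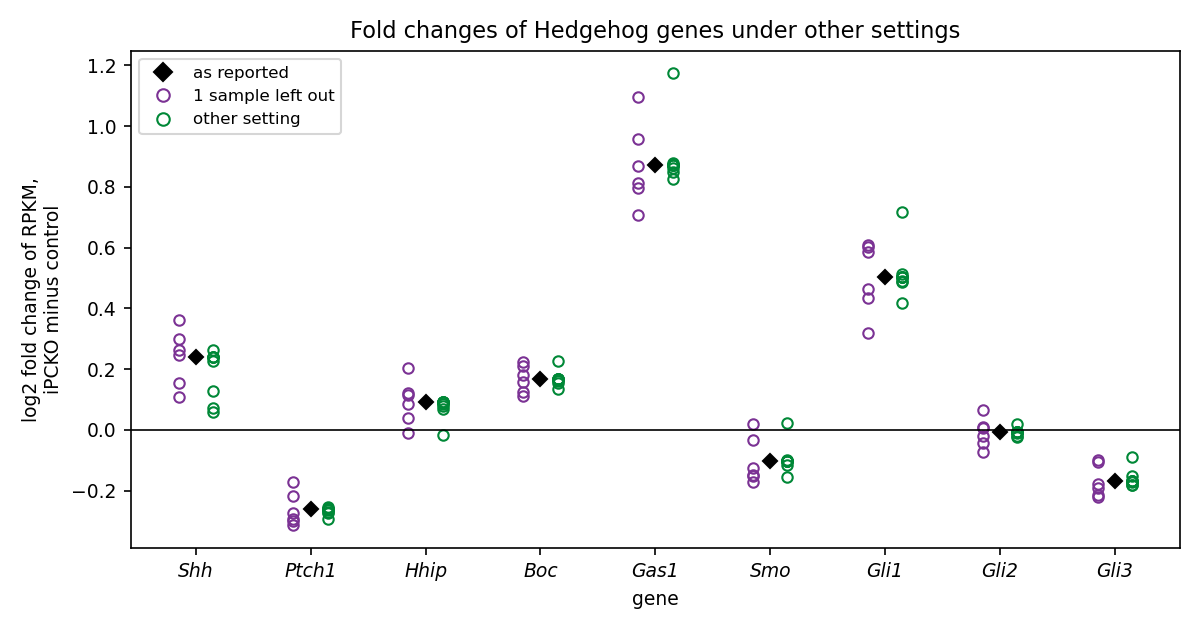
Log2 fold change of RPKM, iPCKO minus control, of the 9 genes as reported (black diamonds), with a sample left out (purple circles) and under the other settings (green circles). Gas1 and Gli1 stayed above 0 and Ptch1 below 0 under each setting, while Smo, Gli2 and Hhip lay close to 0 and fell on both sides of it.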

How the data were processed

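Ribosome-associated RNA was sequenced from 3 control and 3 iPCKO lungs as stranded, paired-end libraries. The authors aligned the reads to the mouse genome mm10 by TopHat, obtained gene counts from HTSeq 0.6.1 and deposited RPKM per Ensembl gene. The read counts were not used here, and which exon length entered is not given in the sources used here. Division by depth and length hides the reads behind a value, so low genes carry more error than their RPKM show.

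Symbols and positions came from GENCODE M21 (GRCm38), which named 21375 of the 21603 genes. RPKM were tested as log2(RPKM + 0.1) with limma 3.58.1 in R 4.3.3 (intensity trend, Benjamini-Hochberg adjustment over all genes tested), without further scaling, for 12034 genes that reached 1 RPKM in 3 or more samples. Fold changes on this scale understate the change of low genes. Genes were called at an adjusted p-value under 0.01 with a log2 fold change beyond 0.5 in either direction. Fits that left out a sample used the same 12034 genes. The script was tested on simulated data. Single ratios were compared with exact permutation tests (scipy 1.17.1). Reads behind a value were estimated from the steps of 1 read in low RPKM and the union of annotated exons.

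The 9 genes and the other lists were chosen with earlier results of these data known. All 9 genes are described. Of the other pathway genes, those past the thresholds, close partners of the 9 genes and the 2 largest changes of each list are named, and of the marker lists the highest gene. Alternatives were other values added before the logarithm, other filters, median-ratio scaling, quantile normalization, a replicate block, no intensity trend, sample weights, each sample left out and other thresholds. Labels name 3 separate samples per group, and whether they came from separate litters is not stated, so that p-values measure the spread between these samples, which may be partly technical. Not every listed gene is reported here.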

Additional observations from a re-analysis of the deposited data

How the results depend on the processing

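The count of Hedgehog genes past the thresholds was 0 as reported. It was 2 with sample weights (Gli1 at 0.72, adjusted p = 0.00346, and Gas1 at 1.17, adjusted p = 6.3e-05, limma), 1 at an adjusted p-value below 0.05 (Gas1), and between 0 and 1 with a sample left out. Without control 1 Gas1 passed, and its adjusted p-value (limma) reached 0.058 without iPCKO 2. The weights ranged from 0.289 for control 1 to 5.01 for iPCKO 2. Of the other pathway genes 6 passed as reported, 3 without the filter on low values or above a log2 fold change of 1, 11 with sample weights or at an adjusted p-value below 0.05, and 3 to 7 with a sample left out (3 without control 3, iPCKO 2 or iPCKO 3). Over all genes the number was 817, against 1590 with sample weights, 1313 at an adjusted p-value below 0.05, 411 above a log2 fold change of 1 and 382 to 899 with a sample left out (382 without control 3, 414 without iPCKO 2, 499 without iPCKO 3).

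Fold changes near 0 changed sign, none past the thresholds. With sample weights those of Smo, Gli2 and Hhip were 0.024, 0.019 and -0.018. With a sample left out, Smo ranged from -0.17 to 0.018, Gli2 from -0.074 to 0.067, Hhip from -0.010 to 0.20 and Gas1 from 0.71 to 1.10. The cause was not tested. Scaling between samples by median ratios or quantiles changed the call of none of the 9 Hedgehog genes and moved none across 0. The log2 fold change of Gli1 went from 0.503 to 0.491 with median ratios and 0.486 with quantiles, under the threshold of 0.5. Of the other pathway genes, 5 passed with median ratios, where Scube1 lost its call, and 8 with quantiles, where Scube3 and Foxf2 gained one.

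With the replicate number as a block, 922 genes passed and none of the 9 Hedgehog genes did. The other pathway genes numbered 6 again but were not the same, since Ccnd2 lost its call and Foxf2 gained one. Deviations from the group means correlated with r from 0.02 to 0.24 for samples of the same number and from -0.30 to 0.27 for others. So few correlations cannot tell whether samples of the same number shared a litter or batch. The main fit used no block. Shh could not be fitted with at least 1 RPKM required in all samples, and its estimated reads per sample limit what could be detected.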
